A study of Homo sapiens with 15 samples.

Results

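U87MG cells collected after lentiviral delivery labelled ID3 were compared with U87MG cells collected after delivery labelled ID4, in 3 RNA libraries each, 6 of the 15 libraries of the experiment. U87MG is an established human glioblastoma cell line. The genes compared were chosen by level alone: of 25737 listed entries, the 12793 with a mean of 10 or more counts over the 6 libraries were tested. Comparisons with GFP are given for orientation and share the same 3 GFP libraries. The experiment had 5 groups of 3 libraries, all from cells exposed to lentivirus for 24 h: a GFP control vector and overexpression vectors labelled ID1, ID2, ID3 and ID4, and all 5 groups therefore shared the line, the virus and the time. The promoter of the vectors and the number of cultures were not given in the sources used here, so p-values measured the spread between these libraries, which may be technical. RNA was counted near the 3′ end of transcripts with the QuantSeq kit, and levels are given as CPM, counts scaled to a common library total, after TMM scaling, a scaling that sets the bulk of genes level between libraries.

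ID proteins are small helix-loop-helix proteins without a DNA-binding region. They pair with E proteins, the broadly expressed bHLH transcription factors such as TCF3 and TCF4, and keep them from binding the E-box, the short DNA element CANNTG. The 4 family members are typical targets of BMP and SMAD signalling, and in glioma they are studied for their part in self-renewal. ID3 and ID4 differ in their usual tissues, and both are expressed in the developing nervous system.

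The ID transcripts were read first, as a check of the labels. ID4 was counted at 212, 223 and 236 CPM in the 3 ID4 libraries and at 0.203, 0.355 and 0.744 CPM in the ID3 libraries, which was 3, 5 and 10 counts. The summed counts gave a ratio of 526 (95% counting interval 333 to 888, Poisson, counting error only). Outside the ID4 group this transcript was near 0, with a GFP mean of 0.0790 CPM. ID3 was counted at 308, 322 and 299 CPM in the ID3 libraries and at 186, 222 and 215 CPM in the ID4 libraries. The groups did not overlap, and the log2 difference (ID3 minus ID4, here and below) was 0.58 ± 0.067 (SE, adjusted p = 4.65e-06 by edgeR). Against the GFP level of 222 ± 6.01 CPM (SD, n = 3), ID3 was higher in the ID3 libraries by 0.48 on the log2 scale, and the ID2 libraries reached a mean of 292 CPM without an ID3 label. ID2, at 46.2 ± 2.13 CPM with the ID3 label and 36.0 ± 1.54 CPM with the ID4 label, differed by 0.36 ± 0.069 (adjusted p = 0.00153), and both groups lay below the GFP mean of 86.0 CPM. ID1, at 325 ± 13.1 and 281 ± 18.7 CPM, differed by 0.21 ± 0.062 (adjusted p = 0.031), a call that was lost when ID3 replicate 2 (adjusted p = 0.141), ID3 replicate 3 (0.0531), ID4 replicate 1 (0.176) or ID4 replicate 3 (0.0749) was left out. All 4 genes gave p = 0.1 in a two-sided exact permutation test, the smallest that 3 libraries against 3 allow. Reads of the vector and of the cell's own gene could not be told apart.

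**Figure D1:**
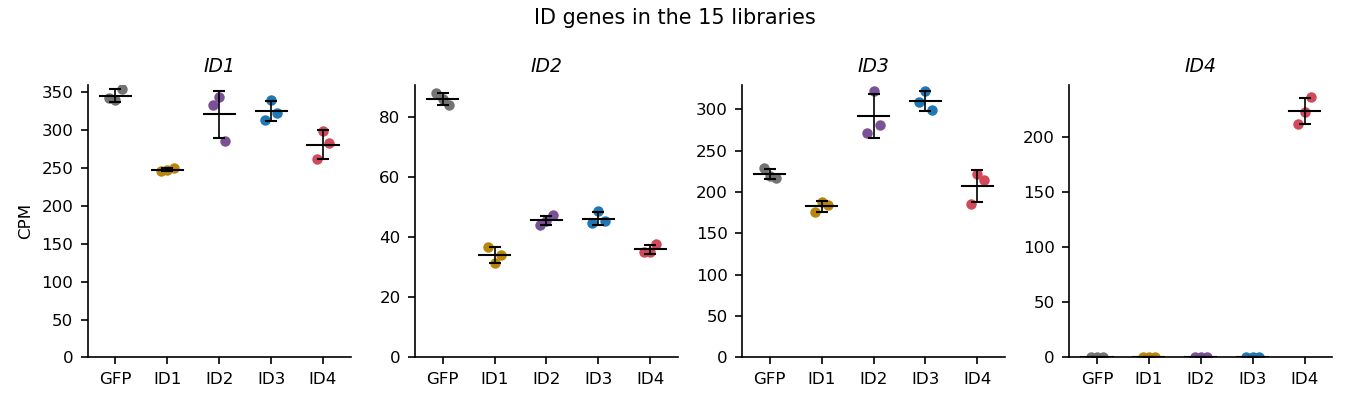
Level (CPM) of the 4 ID transcripts in the 15 libraries of the 5 groups, with dots for libraries, a bar for the group mean and whiskers for the SD. ID4 stands at 212 to 236 CPM in the ID4 libraries and near 0 elsewhere, while ID3 spans 299 to 322 CPM in the ID3 libraries and 186 to 222 CPM in the ID4 libraries.

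Between the groups, 1482 of the 12793 genes passed an adjusted p under 0.05 (percent called 11.6). The 722 genes higher in ID3 were 5.64% of those tested and the 760 lower in ID3 were 5.94%. In 3934 of the tested genes (30.8%) the groups did not overlap in CPM, and 1455 of these were called. Most differences were small: the median size among the called genes was 0.34 on the log2 scale, and 122 genes differed by more than 2-fold, 59 higher and 63 lower in ID3. Of the 6551 genes with a mean of 20 CPM or more, 1084 were called and only 13 differed by more than 2-fold. The share called was thus larger among abundant genes, which the shares over all genes given beside the lists below do not take into account. The lists were also chosen with earlier results of these data known, so their shares and ranking are descriptions only. The libraries held 11089044 to 14428920 counts, and the first principal component of the 6 libraries, 48.2% of their variance, separated the groups. In simulated counts with the spread of these libraries, 13 of 50 genes changed by 1.25-fold were recovered. At 1.5-fold 38 of 50 were recovered and at 2-fold 46 of 50, and 12 unchanged genes were called. The simulation changed far fewer genes than the 1482 called here, which makes the adjusted p stricter. Its shares therefore do not carry over to this comparison. Small differences could be missed, but how often was not measured. Without 1 library the count of called genes ranged from 832 to 1386; it fell by more than 1.5 times without ID3 replicate 1 (832), ID3 replicate 2 (911), ID4 replicate 1 (869), ID4 replicate 2 (966) or ID4 replicate 3 (942).

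**Figure D2:**
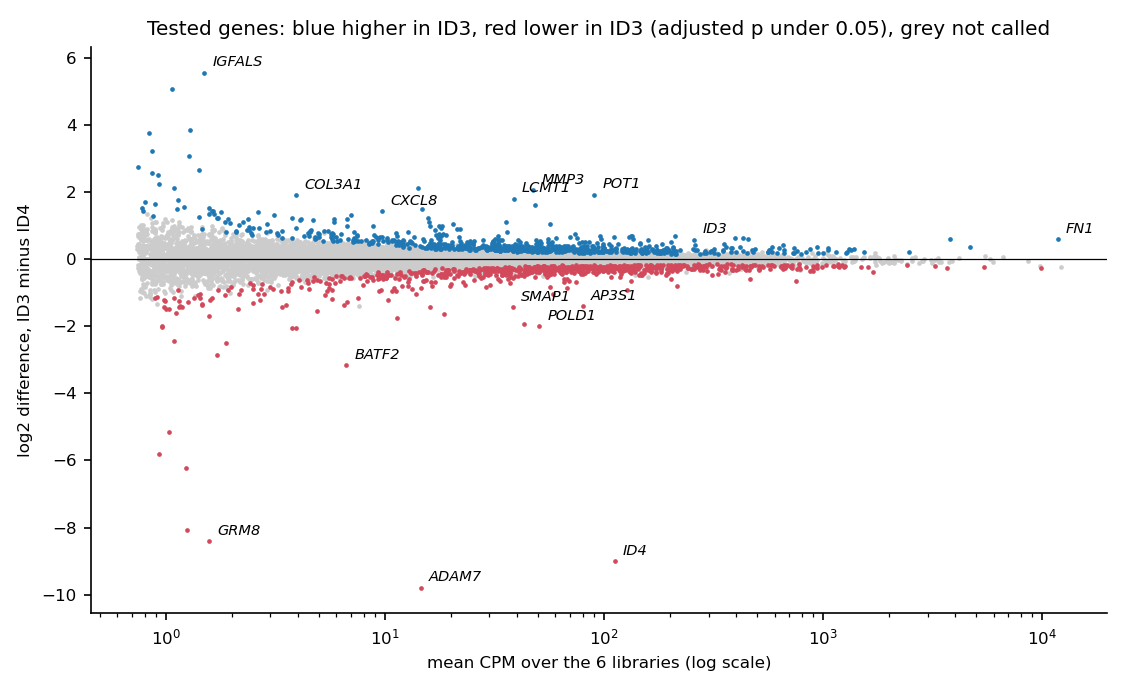
Log2 difference (ID3 minus ID4) against mean level (CPM, log axis) for the 12793 tested genes, with called genes in blue (722 higher in ID3) and red (760 lower in ID3). Most called genes lie close to 0, and 122 of them lie beyond 2-fold.

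A first set of genes was set apart in the ID4 libraries. POLD1 (chr19:50887461-50921275 in GRCh37, plus strand), the catalytic subunit of DNA polymerase delta, was counted at 20.9, 18.97 and 20.7 CPM in ID3 and at 82.9, 83.5 and 77.3 CPM in ID4. Its log2 difference was -2.01 ± 0.091 (adjusted p = 7.54e-13), with GFP at 20.2 CPM, ID1 at 17.9 CPM and ID2 at 17.4 CPM. POR (chr7:75528518-75616173), the reductase that passes electrons to cytochrome P450 enzymes, stood at 18.2, 18.97 and 16.7 CPM in ID3 and at 68.2, 68.0 and 69.4 CPM in ID4 (-1.93 ± 0.081, adjusted p = 3.45e-13). All 3 ID4 libraries of both genes lay above the other 12 libraries. AP3S1, a subunit of the AP-3 vesicle adaptor, was at 44.9, 42.9 and 43.6 CPM against 112, 121 and 115 CPM (-1.40 ± 0.065). SMAP1, an activator of ARF6 GTPase hydrolysis, was at 21.96, 21.7 and 18.9 CPM against 56.1, 54.6 and 57.1 CPM (-1.42 ± 0.091). In each of these 4 genes the ID3 group did not pass against GFP, and the ID4 group did.

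Transcripts at or near 0 in the ID3 libraries were part of it. ADAM7, a membrane protein best known from the epididymis, was counted at 29.2, 28.8 and 29.4 CPM in ID4 and held 1 count in the ID3 libraries together, a ratio of 1235 with a counting interval from 221 upward. It was at 25.2 CPM in the ID1 libraries as well, and at 0 in GFP. GRM8, a glutamate receptor, had 39, 32 and 47 counts in ID4 and none in ID3, so it was at least 14.9-fold lower in ID3 (floor of 3 counts per library). LUZP4 had 30, 24 and 40 counts in ID4 and none in ID3, which made it at least 11.9-fold lower in ID3. BATF2, a bZIP factor known as interferon-inducible, was at 1.08, 0.924 and 2.01 CPM in ID3 and at 11.6, 11.2 and 12.97 CPM in ID4 (-3.16 ± 0.25, adjusted p = 1.2e-08). SPIB and SI gave ratios of 104 (interval 18.3 to 4172) and 78.4 (13.6 to 3140) on 1 count each in ID3. The ID3 libraries of SPIB and SI had no count in replicates 2 and 3.

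Another set was set apart in the ID3 libraries. POT1 (chr7:124462440-124570037 in GRCh37, minus strand), which covers the single-stranded end of telomeres, was counted at 136, 143 and 148 CPM in ID3 and at 40.9, 37.5 and 34.3 CPM in ID4. The log2 difference was 1.92 ± 0.072 (adjusted p = 4.84e-14), and the GFP, ID1 and ID2 means were 42.4, 38.0 and 42.7 CPM. LCMT1 (chr16:25123052-25189552), the methyltransferase of the phosphatase PP2A, was at 59.4, 64.2 and 56.5 CPM against 16.98, 16.6 and 18.3 CPM (1.80 ± 0.078). NPRL2 (chr3:50384761-50388257), a subunit of the GATOR1 complex that restrains mTORC1, was at 72.0, 78.7 and 69.2 CPM against 24.7, 23.9 and 23.4 CPM (1.61 ± 0.081). SMARCAD1, a chromatin remodeler, was at 46.4, 42.9 and 48.3 CPM against 23.3, 28.1 and 27.1 CPM (0.81 ± 0.087). Against GFP the ID4 libraries differed by -0.28 for LCMT1 (adjusted p = 0.020) and did not pass for POT1 (-0.17), NPRL2 (0.016) or SMARCAD1 (0.0079). At the low end, IGFALS, which carries IGF in blood, had 57, 34 and 34 counts in ID3 against 1, 1 and 0 in ID4, a ratio of 55.0 (interval 14.9 to 459); it overlaps SPSB3 by 3288 bases on the same strand, which was higher too (0.64). ASPN, a small matrix proteoglycan, had 32, 25 and 45 counts against 3, 2 and 1 (ratio 14.97, interval 6.64 to 41.7).

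**Figure D3:**
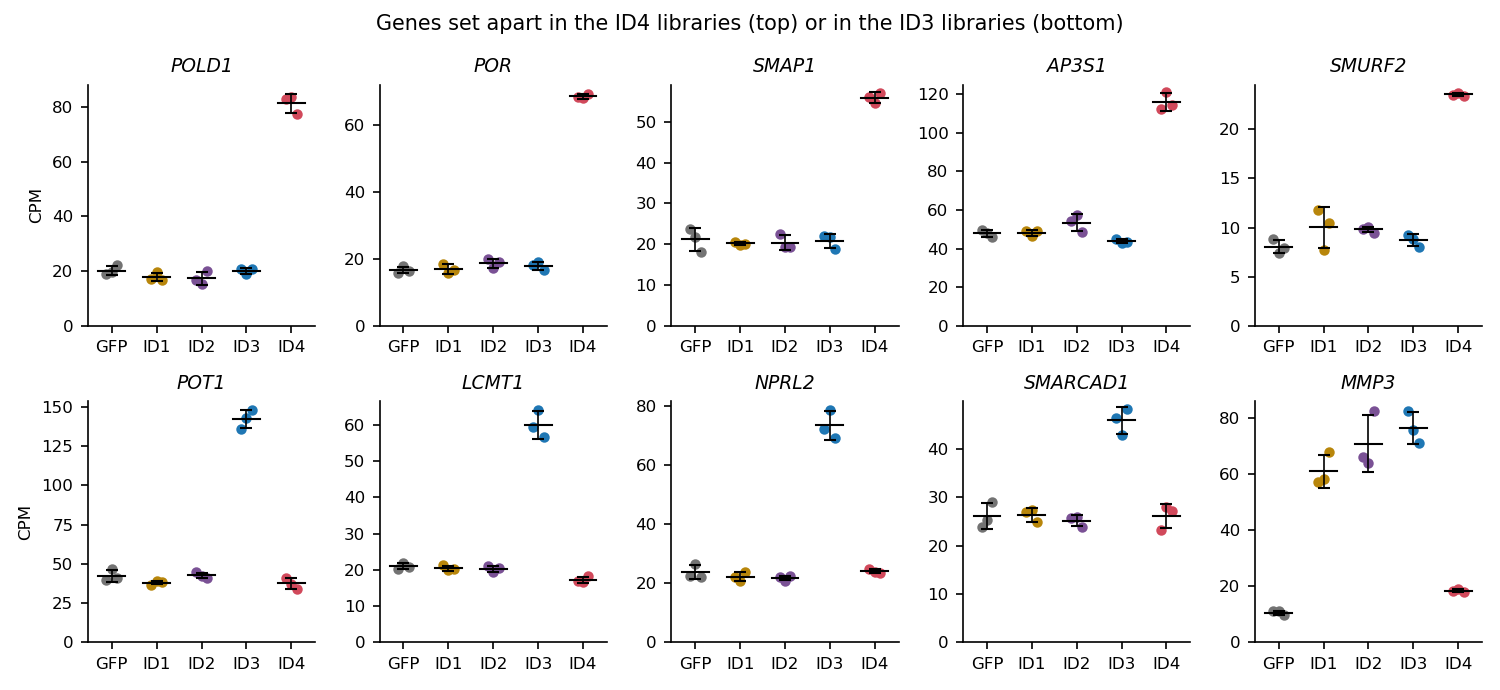
Level (CPM) of 10 genes in the 15 libraries, with dots for libraries, bars for group means and whiskers for the SD. In the upper row (POLD1, POR, SMAP1, AP3S1, SMURF2) the ID4 libraries stand above all others, and in the lower row the ID3 libraries stand above all others for POT1, LCMT1, NPRL2 and SMARCAD1, while MMP3 is also high in ID1 and ID2.

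Neighbouring genes were examined next. Within 100000 bases of the 32 named genes with a tested neighbour lay 100 other tested genes, each counted once, and 20 of them were called (20%, beside 11.6% of all genes). Many of the 20 lay together, beside BATF2, MT1M and IGFALS, so the share does not describe the named genes in general. Those called beside BATF2 were all higher in ID3, whereas BATF2 was lower. Most of those called beside MT1M were of its own metallothionein family. Beside POLD1, SPIB starts 920 bases beyond its end on the same strand, and EMC10, 58382 bases away, was also lower in ID3 (4.62 ± 0.752 against 10.4 ± 0.611 CPM, log2 difference -1.17). The GFP mean of EMC10 was 1.20 CPM, below both groups. NR1H2, 816 bases away on the other side of POLD1, gave 0.22 (adjusted p = 0.216). B3GAT2 overlaps SMAP1 by 5333 bases on the opposite strand and gave -1.63. Reads of such an overlapping pair could not be told apart, because the strand rule of the counting was not given in the sources used here. NPRL2 and HYAL1 lie 34949 bases apart on chromosome 3 and moved in opposite directions: HYAL1, a hyaluronidase, had 3, 7 and 7 counts in ID3 and 38, 44 and 28 in ID4.

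Genes of the extracellular matrix were more often higher than lower in ID3, among them abundant transcripts. Of 27 tested collagen, laminin and matrix genes, 11 were higher and 2 lower, 40.7% and 7.41% beside 5.64% and 5.94% of all genes, and their median difference was 0.22 beside -0.0013 over all tested genes. FN1, fibronectin, was counted at 14380, 14933 and 12936 CPM in ID3 and at 9992, 8812 and 9415 CPM in ID4 (0.58 ± 0.063, adjusted p = 1.93e-06), and at 6116 ± 219 CPM in GFP. COL5A2 was at 192, 207 and 171 CPM against 134, 122 and 131 CPM (0.56 ± 0.078), and COL3A1 at 6.89, 6.61 and 5.13 CPM against 1.70, 1.53 and 1.74 CPM (1.90 ± 0.21). Smaller differences were found for COL1A2 (0.26 ± 0.072), COL1A1 (0.22 ± 0.049) and the collagen-binding SPARC (0.33 ± 0.056), and larger differences for the low-level proteoglycans LUM (1.18 ± 0.19) and DCN (1.51 ± 0.47). The DCN call was lost in every fit that left out 1 library, by DESeq2 and with counts thinned to the smallest library. The 2 lower members were COL13A1, a transmembrane collagen (28.98 ± 1.84 against 44.2 ± 1.13 CPM, -0.61 ± 0.069), and POSTN, periostin (0.879 ± 0.151 against 1.998 ± 0.279 CPM, -1.18 ± 0.29). Against GFP, 20 of the 27 were higher in ID3 and 14 in ID4. COL6A3, at 2570 ± 153 and 2535 ± 79.9 CPM, did not pass (adjusted p = 0.919). Leaving out any 1 library gave 8 to 9 higher members in place of the 11. Without ID3 replicate 1 the count of lower members was 1.

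Of 14 tested metalloproteinases and inhibitors, which cut this matrix or restrain its cutting, 5 were higher and 1 lower in ID3, 35.7% and 7.14% beside 5.64% and 5.94% of all genes. MMP3, stromelysin, was at 82.4, 75.5 and 71.2 CPM in ID3 and at 18.4, 18.9 and 17.8 CPM in ID4 (2.06 ± 0.099, adjusted p = 2.02e-12). GFP lay at 10.6 CPM, and the ID1 and ID2 libraries, at 61.0 and 70.9 CPM, lay nearer to ID3 than to ID4. MMP1, collagenase, lies beside it and was at 1.98 ± 0.178 against 0.846 ± 0.341 CPM (1.24 ± 0.36), and the aggrecanase ADAMTS5 at 73.6 ± 4.19 against 47.3 ± 2.20 CPM (0.64 ± 0.068). TIMP2, an inhibitor, was the lower member (-0.17 ± 0.052), a call that held only in the fit without ID3 replicate 3 among those that left out a library. P4HA2, a member of the hypoxia and glycolysis list and a subunit of the collagen prolyl hydroxylase, was at 510, 560 and 505 CPM against 342, 334 and 344 CPM (0.63 ± 0.064). Of 8 tested plasminogen activators and serpins 2 were higher (25%) and 1 lower (12.5%), beside 5.64% and 5.94% of all genes. SERPINE2, a protease inhibitor bound to matrix, was at 163, 168 and 161 CPM against 105, 98.2 and 101 CPM (0.69 ± 0.054). Against the GFP level of 146 CPM the ID3 libraries differed by 0.17 (adjusted p = 0.023) and the ID4 libraries by -0.53. Among the named genes at low level, the hyaluronan-binding TNFAIP6 had 26, 28 and 21 counts in ID3 against 3, 5 and 7 in ID4.

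TGF-beta is known to raise many matrix genes. Of 16 tested ligands, receptors and targets, 5 were higher in ID3 (31.25%) and 1 was lower (6.25%), beside 5.64% and 5.94% of all genes. The 5 became 3 without ID3 replicate 1, ID3 replicate 2 or ID4 replicate 2. TGFBI, a secreted target, was at 4424, 4763 and 4452 CPM against 3075, 2921 and 3095 CPM (0.59 ± 0.047, adjusted p = 1.55e-08), with GFP at 3136 ± 119 CPM. The ligands TGFB2 (0.38 ± 0.058) and TGFB3 (0.72 ± 0.15) were higher, and LTBP1, which stores the ligand in matrix, was lower (50.4 ± 4.17 against 68.4 ± 7.73 CPM, -0.44 ± 0.080). Of 21 tested actin and SRF genes, 5 were higher (23.8%, beside 5.64% of all genes) and none was lower. Among the 5 were TAGLN (1.35 ± 0.35), ACTA2 (0.56 ± 0.13) and TPM1 (0.28 ± 0.052). Of all 21, 14 were above GFP in ID3 and 11 in ID4.

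**Figure D4:**
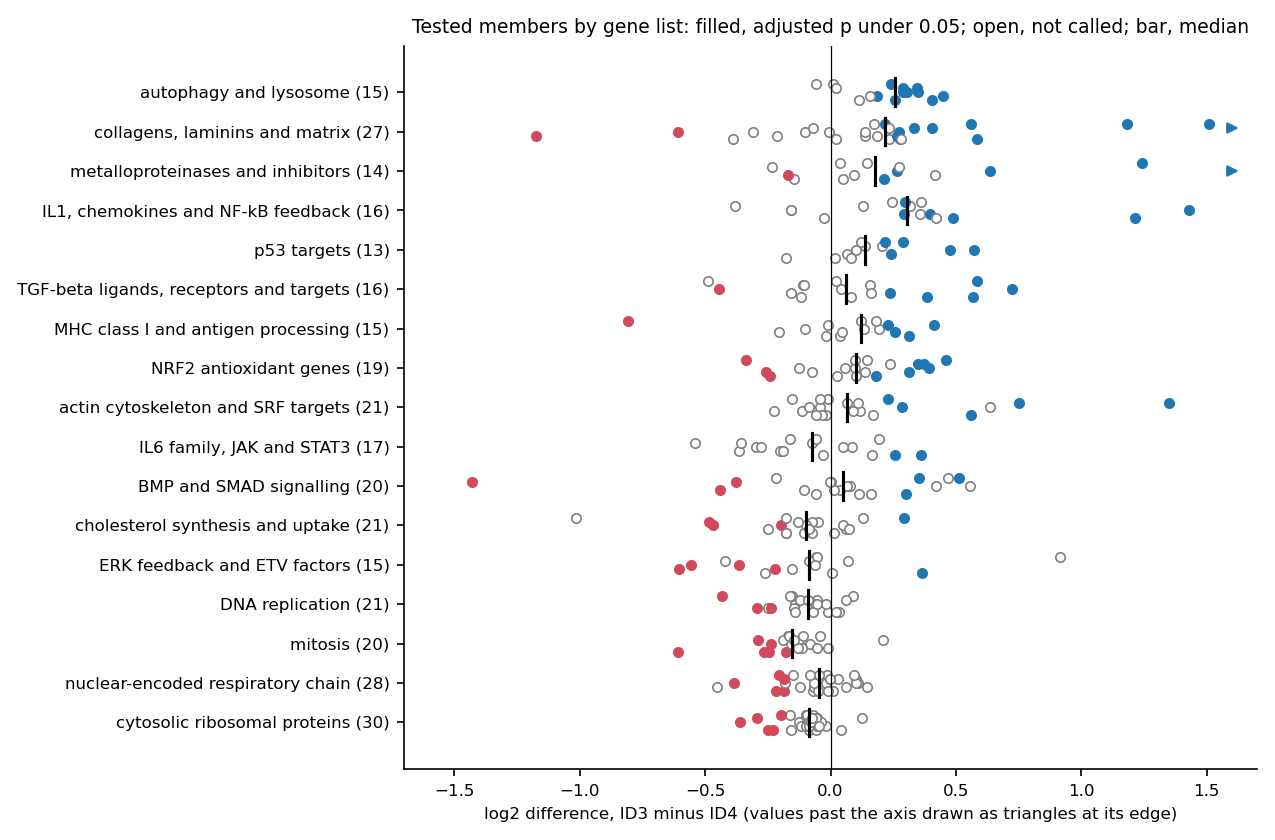
Log2 difference (ID3 minus ID4) of the tested members of 17 gene lists, filled where the adjusted p was under 0.05 and open where it was not, with a bar at the median and the number tested in parentheses. The medians of the lysosome, matrix and NF-kB lists lie to the right of 0, and those of the mitosis, replication and ribosomal lists to the left.

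Genes of the IL1, chemokine and NF-kB axis were called in 1 direction, higher in ID3. NF-kB is kept inactive by NFKBIA until cytokines such as IL1 release it, and it then raises chemokines and its own inhibitor. Of 16 tested members 6 were higher (37.5% beside 5.64% of all genes) and none was lower, with a median of 0.31. Against GFP, 4 members were higher and 4 lower in ID3, and 3 were higher and 7 lower in ID4. CXCL8, the neutrophil chemokine, was at 14.6, 13.2 and 14.6 CPM in ID3 and at 5.48, 5.85 and 4.47 CPM in ID4 (1.43 ± 0.25, adjusted p = 0.000647). With GFP at 14.8 CPM, the ID3 libraries did not pass against it (-0.077) and the ID4 libraries differed from it by -1.51. NFKBIA was at 329, 361 and 358 CPM against 285, 285 and 283 CPM (0.30 ± 0.049), RELB at 37.6 ± 2.28 against 28.5 ± 3.93 CPM (0.39 ± 0.094) and NFKB1 at 18.9 ± 0.580 against 13.4 ± 3.43 CPM (0.49 ± 0.12). CXCL5 (1.21 ± 0.32) and IL1R1 (0.29 ± 0.093) completed the 6. The IL1R1 call was lost in every fit that left out 1 library, and at most 5 members were higher in those fits. Of the 16, 6 lie on chromosome 4, where the median of all genes was above 0 as well. Among the 10 on other chromosomes 3 were higher. Without ID4 replicate 2 only 2 of the 16 passed.

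The promoters of 3 of these genes are shown for a short element that is frequent in this list and rare in other promoters. The list was put together around known NF-kB genes, so a high share was given in advance. It carries nothing on ID3 against ID4. Windows of 300 bases, 250 before and 50 after the start, were taken from RefSeq (GRCh38.p14), and capitals mark GGANTTTCC on either strand, an NF-kB type sequence. It occurred in 8 of the 14 tested members with a window (57.1%), in 4 of the 5 higher members with one, and in 1.64% of all 27305 windows. Among all genes with a window it was in 1.75% of the 572 higher in ID3 and in 1.79% of the 614 lower in ID3.
CXCL8 chr4:73740319-73740618 (+ strand): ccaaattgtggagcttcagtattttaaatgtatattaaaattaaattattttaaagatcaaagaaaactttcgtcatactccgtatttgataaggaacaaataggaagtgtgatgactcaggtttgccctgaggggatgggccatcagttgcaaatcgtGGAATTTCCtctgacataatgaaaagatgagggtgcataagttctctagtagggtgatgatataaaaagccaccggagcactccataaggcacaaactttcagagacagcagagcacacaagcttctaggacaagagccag
CXCL5 chr4:73998628-73998927 (- strand): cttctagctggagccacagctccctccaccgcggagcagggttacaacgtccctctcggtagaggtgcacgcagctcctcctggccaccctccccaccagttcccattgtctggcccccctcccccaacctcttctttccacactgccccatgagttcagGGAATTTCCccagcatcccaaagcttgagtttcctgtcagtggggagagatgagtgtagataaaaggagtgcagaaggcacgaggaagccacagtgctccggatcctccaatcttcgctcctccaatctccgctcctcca
NFKBIA chr14:35404700-35404999 (- strand): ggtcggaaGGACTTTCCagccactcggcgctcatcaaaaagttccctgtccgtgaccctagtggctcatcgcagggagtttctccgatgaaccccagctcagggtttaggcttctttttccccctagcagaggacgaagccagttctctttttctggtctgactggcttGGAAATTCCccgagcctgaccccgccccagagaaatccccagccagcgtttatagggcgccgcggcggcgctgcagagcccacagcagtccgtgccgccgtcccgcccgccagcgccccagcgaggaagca
The match in CXCL8 starts 91 bases before the start site and that in CXCL5 starts 90 bases before it, on chromosome 4 in both. NFKBIA, on chromosome 14, holds 2. A match is a description of the letters and not a measured binding site.

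The MHC class I genes HLA-B and HLA-C, which present peptides to T cells, were also higher in ID3. HLA-B was at 760, 748 and 738 CPM against 582, 557 and 551 CPM (0.41 ± 0.049, adjusted p = 7.46e-06) and HLA-C at 125 ± 4.22 against 101 ± 5.28 CPM (0.31 ± 0.058). Both were above GFP in ID3 and did not pass in ID4. Genes of this family are close in sequence, so the split of reads between them is uncertain. In the list of 15, 4 were higher (26.7%) and 1 was lower (6.67%), beside 5.64% and 5.94% of all genes. The peptide loader TAPBP (0.23 ± 0.065) was among the 4, and the lower member was the peptide trimmer ERAP2 (9.28 ± 1.27 against 16.3 ± 0.761 CPM, -0.81 ± 0.12). B2M, the shared light chain, was at 4213 ± 406 against 4100 ± 386 CPM (adjusted p = 0.804).

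Lysosome and autophagy genes gave the largest share of higher members among the gene lists, the ID family aside. Of 15 tested members 10 were higher in ID3 (66.7% beside 5.64% of all genes) and none was lower, with a median of 0.26. The lysosomal protease CTSD was at 1017, 1129 and 992 CPM against 831, 807 and 824 CPM (0.35 ± 0.056, adjusted p = 0.000254), and CTSB at 371, 388 and 381 CPM against 320, 309 and 326 CPM (0.26 ± 0.053). GABARAPL1, which coats autophagosomes, was at 66.7, 65.7 and 65.3 CPM against 49.3, 48.6 and 47.1 CPM (0.45 ± 0.058). The membrane protein LAMP1 (0.19 ± 0.047), the autophagy receptor SQSTM1 (0.24 ± 0.053), the glycoprotein GPNMB (0.40 ± 0.095), the sialidase NEU1 (0.30 ± 0.087), the glycosidase HEXA and the phosphoinositide-binding WIPI1 were also higher. No difference exceeded 0.45 on the log2 scale, and against GFP 10 members were higher in ID3 and 5 in ID4. Without ID3 replicate 2 the count was 6. CTSL, at 351 ± 30.1 and 349 ± 27.1 CPM, did not pass (adjusted p = 0.968).

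Lysosomal genes are known for the element CACGTG, an E-box with fixed inner bases that the MiT/TFE factors bind within longer sites. It was found in 3 of the 10 tested members with a RefSeq window, against 10.3% of the windows of tested genes, 7.43% of all windows, 12.1% of those of genes higher in ID3 and 11.4% of those lower. The looser E-box CANNTG, which includes it, was in 68.9% of all windows, 59.8% of those of tested genes, 61.9% of those higher and 63.2% of those lower in ID3. The 3 windows are printed with CACGTG in capitals to show its number and place.
LAMP1 chr13:113296989-113297288 (+ strand): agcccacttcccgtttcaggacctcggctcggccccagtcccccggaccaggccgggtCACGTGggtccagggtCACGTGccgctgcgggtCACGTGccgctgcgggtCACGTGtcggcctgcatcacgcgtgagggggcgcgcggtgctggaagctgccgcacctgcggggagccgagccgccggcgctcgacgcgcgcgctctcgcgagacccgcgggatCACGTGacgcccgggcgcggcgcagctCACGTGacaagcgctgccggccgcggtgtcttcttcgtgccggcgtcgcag
CTSD chr11:1763878-1764177 (- strand): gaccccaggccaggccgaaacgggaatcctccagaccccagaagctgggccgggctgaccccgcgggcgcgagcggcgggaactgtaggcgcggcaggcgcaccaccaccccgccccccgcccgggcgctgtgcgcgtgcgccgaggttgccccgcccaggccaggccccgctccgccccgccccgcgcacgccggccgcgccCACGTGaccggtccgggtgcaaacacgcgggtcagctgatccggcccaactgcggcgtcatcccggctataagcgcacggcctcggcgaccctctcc
NEU1 chr6:31862772-31863071 (- strand): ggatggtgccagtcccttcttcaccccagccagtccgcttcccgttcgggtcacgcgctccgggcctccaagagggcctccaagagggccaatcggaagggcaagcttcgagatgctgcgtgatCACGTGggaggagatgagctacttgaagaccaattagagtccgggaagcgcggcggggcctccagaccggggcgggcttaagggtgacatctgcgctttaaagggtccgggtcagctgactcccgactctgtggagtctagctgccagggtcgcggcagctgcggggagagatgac
LAMP1 holds 6 matches, and CTSD and NEU1 hold 1 each. The LAMP1 difference was the smallest of the 3.

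Iron, detoxification and metal-binding genes were split. Of 19 tested NRF2 genes 6 were higher (31.6%) and 3 lower (15.8%) in ID3, beside 5.64% and 5.94% of all genes. FTH1, the ferritin heavy chain, was at 5095, 5460 and 5144 CPM against 4170, 4124 and 4045 CPM (0.35 ± 0.044, adjusted p = 1.5e-05). HMOX1, heme oxygenase 1, was at 688, 641 and 644 CPM against 500, 502 and 524 CPM (0.37 ± 0.074), and the aldo-keto reductase AKR1C1 at 112 ± 2.36 against 85.4 ± 4.59 CPM (0.39 ± 0.062). The 6 were FTH1, FTL, HMOX1 and the 3 near-identical reductases AKR1C1, AKR1C2 and AKR1C3, whose reads may be shared. The lower members were GCLM, of glutathione synthesis, SRXN1, of peroxiredoxin repair, and TKT, of the pentose phosphate path, and 1 of them passed without ID3 replicate 2, ID4 replicate 2 or ID4 replicate 3. NQO1, a standard NRF2 target, did not pass (adjusted p = 0.102). Among metallothioneins, MT1M was at 74.1, 83.0 and 72.9 CPM against 39.6, 33.8 and 37.5 CPM (1.05 ± 0.080), while the abundant MT2A was lower (2267 ± 86.2 against 2553 ± 52.7 CPM, -0.17 ± 0.046). These genes lie side by side and are near-identical, which leaves the split between them uncertain.

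Targets of p53 and cell-cycle genes were called in opposite directions. U87MG carries an intact p53 gene. Of 13 tested p53 targets 5 were higher in ID3 (38.5%, beside 5.64% of all genes) and none was lower: TP53INP1 (39.1 ± 3.33 against 26.3 ± 1.42 CPM, 0.57 ± 0.082), the death gene BBC3 (0.48 ± 0.10), the CDK inhibitor CDKN1A (151, 158 and 153 against 124, 127 and 127 CPM, 0.29 ± 0.054), ZMAT3 (0.22 ± 0.057) and RRM2B. In each fit that left out 1 library 4 were higher. Against GFP, 8 were higher in ID3 and 1 in ID4. Another CDK inhibitor, CDKN1B, was at 74.1 ± 2.78 against 57.0 ± 1.49 CPM (0.38 ± 0.065). Of 20 tested mitosis genes 6 were lower (30%, beside 5.94% of all genes) and none was higher, with a median of -0.15 and 19 of 20 below 0. PLK1, the mitotic kinase, was at 45.5, 48.5 and 62.3 CPM against 78.7, 88.5 and 71.2 CPM (-0.61 ± 0.14, adjusted p = 0.00672), and CCNB1, cyclin B1, at 84.3, 96.3 and 85.1 CPM against 102, 103 and 115 CPM (-0.27 ± 0.065). CENPF, PTTG1, CENPE and AURKA were the others. Without ID3 replicate 1 only 1 mitosis gene passed, and 3 passed without ID3 replicate 3, ID4 replicate 1 or ID4 replicate 3. Of 21 replication genes 3 were lower (14.3%), RFC4 (-0.43 ± 0.093), RRM1 (-0.24 ± 0.055) and CDC6 (-0.29 ± 0.086), and without ID3 replicate 1 only 1 passed.

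The ribosomal and respiratory chain genes that passed were lower in ID3, by small amounts. Of 30 tested cytosolic ribosomal protein genes 5 were lower (16.7% beside 5.94%) and 28 were below 0, with a median of -0.088. The 5.94% is over all tested genes, and abundant genes were called more often. At 20 CPM or more, 1084 of 6551 genes were called in either direction, a share near that of both lists here. RPL4 was at 477, 521 and 537 CPM against 627, 641 and 614 CPM (-0.29 ± 0.053) and RPL11 at 790 ± 98.6 against 1014 ± 21.3 CPM (-0.36 ± 0.081). These genes have many processed copies, which can share reads. Of 28 respiratory chain genes 5 were lower (17.9%). That count fell to 1 without ID3 replicate 1 or ID4 replicate 1, and to 2 without ID3 replicate 2, ID4 replicate 2 or ID4 replicate 3. The cholesterol pathway enzyme FDPS (119, 119 and 129 against 171, 184 and 159 CPM, -0.48 ± 0.062) was lower too. In its list of 21, 3 were lower (14.3%) and 1 higher (4.76%), beside 5.94% and 5.64% of all genes.

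Feedback genes of ERK, which rise when the pathway is active, were lower in ID3 in 4 of 15 cases (26.7%) and higher in 1 (6.67%). The shares of all genes were 5.94% and 5.64%. DUSP6, the cytosolic ERK phosphatase, was at 22.97, 26.6 and 29.1 CPM in ID3 and at 41.1, 39.3 and 39.0 CPM in ID4 (-0.60 ± 0.097, adjusted p = 0.000247). ETV5 was at 47.3 ± 3.93 against 60.8 ± 1.07 CPM (-0.36 ± 0.074), DUSP4 at 7.57 ± 0.431 against 11.1 ± 0.638 CPM (-0.56 ± 0.14) and PHLDA1 differed by -0.22 ± 0.055. Against GFP the ID3 libraries were lower for DUSP6 (-0.78) and ETV5 (-0.43) and did not pass for DUSP4, and the ID4 libraries were higher for DUSP4 (0.66) and did not pass for the other two. DUSP1, a nuclear phosphatase, was higher (0.36 ± 0.097), a call lost without ID3 replicate 1, ID3 replicate 2 or ID4 replicate 3.

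The partners and upstream signals of ID proteins were examined next. Of 11 tested E proteins and other bHLH factors only TCF3, the main E protein partner, passed (9.09% beside 11.6% of all genes), at 185, 205 and 209 CPM in ID3 and 244, 242 and 252 CPM in ID4 (-0.30 ± 0.060, adjusted p = 0.0021). TCF4 gave 0.13 ± 0.057 (adjusted p = 0.151). In BMP and SMAD signalling 3 of 20 were higher and 3 lower (15% in each direction, beside 5.64% and 5.94% of all genes). Without ID4 replicate 2 only 1 was higher. SMURF2, a ubiquitin ligase that removes SMADs and receptors, was at 9.25, 8.88 and 8.03 CPM in ID3 and at 23.5, 23.7 and 23.4 CPM in ID4 (-1.43 ± 0.12, adjusted p = 4.81e-08), with GFP at 8.07 CPM. The BMP antagonists went apart, GREM1 higher (540 ± 9.76 against 439 ± 20.7 CPM, 0.30 ± 0.054) and FST lower (29.6 ± 1.48 against 40.02 ± 5.23 CPM, -0.44 ± 0.096). The ligand GDF5 was lower (-0.38 ± 0.065), and SMAD1, which carries the BMP signal, was higher (0.51 ± 0.13) but lies on chromosome 4. In the IL6, JAK and STAT3 list, 2 of 17 passed, 11.8% and thus near the 11.6% of all genes, JAK1 (106 ± 5.81 against 88.8 ± 4.39 CPM, 0.26 ± 0.058) and LMO4 (0.36 ± 0.059). STAT3 itself was at 130 ± 5.83 against 132 ± 13.9 CPM (adjusted p = 0.837).

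Genes of glioma stemness and glial identity gave 2 higher and 2 lower of 11 (18.2% each), beside 5.64% and 5.94% of all genes. These counts came to 1 without ID3 replicate 2 in both directions, without ID4 replicate 1 for the higher and without ID3 replicate 1 or ID4 replicate 3 for the lower. SOX9, a glial transcription factor, was at 7.90, 5.97 and 7.36 CPM against 10.1, 10.8 and 10.2 CPM (-0.55 ± 0.14), NES, nestin, at 19.6 ± 1.72 against 26.4 ± 3.08 CPM (-0.43 ± 0.11), and the mesenchymal marker CHI3L1 was higher (0.37 ± 0.079). ALDH1A3, an aldehyde dehydrogenase that marks mesenchymal glioma stem cells, was at 103, 101 and 106 CPM against 162, 163 and 162 CPM (-0.65 ± 0.051, adjusted p = 1.11e-08), and both groups lay below the GFP mean of 315 CPM. Of 10 tested aldehyde dehydrogenases 3 were lower (30%) and 1 higher (10%). IGFBP4, an IGF-binding protein, was at 91.9 ± 0.773 and 55.2 ± 1.61 CPM with GFP at 197 CPM. It was the only higher member of 7 tested IGF axis genes (14.3%), and 2 were lower (28.6%). The stress gene NDRG1 was at 826 ± 34.5 and 652 ± 19.4 CPM with GFP at 2076 CPM. In its hypoxia and glycolysis list 5 of 28 were higher (17.9%) and 1 lower (3.57%).

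Markers of other cell types were checked. Of 5 tested neuron markers SNAP25 was higher in ID3 (0.60) and MAP2 lower (-0.60), and of the oligodendrocyte, endothelial, leukocyte and epithelial markers none of the 5 tested passed. Neuronal transcripts RBFOX3 and NEFL had 0 or 1 count in each of the 6 libraries, and the leukocyte marker AIF1 and the endothelial marker CLDN5 had none. In bulk RNA fewer cells of a type and less RNA per cell cannot be told apart. The summed level of 9 neuron markers was 193 to 207 CPM in ID3 and 206 to 216 CPM in ID4, mostly TUBB3, with ranges that overlapped, and 6 leukocyte markers gave 56.3 to 64.9 and 55.9 to 67.0 CPM, nearly all CD68. The CDKN2A, CDKN2B and MTAP transcripts, from a locus known to be deleted in U87MG, summed to 0 in every ID3 library and to 0.0758 CPM at most in ID4.

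Called genes were not spread evenly over the chromosomes. On chromosome 4 the median difference of 456 tested genes was 0.14, with 62 genes higher in ID3 (13.6%) and 5 lower (1.10%). All 18 windows of about 25 neighbouring genes along it had medians above 0, from 0.037 to 0.23. Relative to all 15 libraries, the chromosome 4 median was 0.058, 0.067 and 0.083 in the ID3 libraries and -0.051, -0.056 and -0.072 in the ID4 libraries. The split was not particular to this pair. The ID1 libraries stood at 0.065, 0.062 and 0.092 and the GFP libraries at 0.042, 0.025 and 0.037, while the ID2 libraries stood at -0.080, -0.070 and -0.147. Against GFP the chromosome 4 median difference was 0.037 in ID3 and -0.11 in ID4. On chromosome 19, 66 of 755 tested genes were higher (8.74%) and 18 lower (2.38%), with a median of 0.049. On chromosome 1, 49 of 1246 were higher (3.93%) and 111 lower (8.91%), with a median of -0.044. The shares of all tested genes were 5.64% and 5.94%. Along chromosome 19 every window from base 281040 to base 19469563 had a median above 0, from 0.047 to 0.23. The windows beyond that stretch lay on both sides of 0. CXCL8, CXCL5, NFKB1, SMAD1 and SMARCAD1 lie on chromosome 4, and NFKB1 and SMAD1 lost their calls when each chromosome's median was taken off. Over all genes, with each chromosome's median taken off as an offset, 1400 genes were called, 700 in each direction, and 1271 of them were among the 1482.

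**Figure D5:**
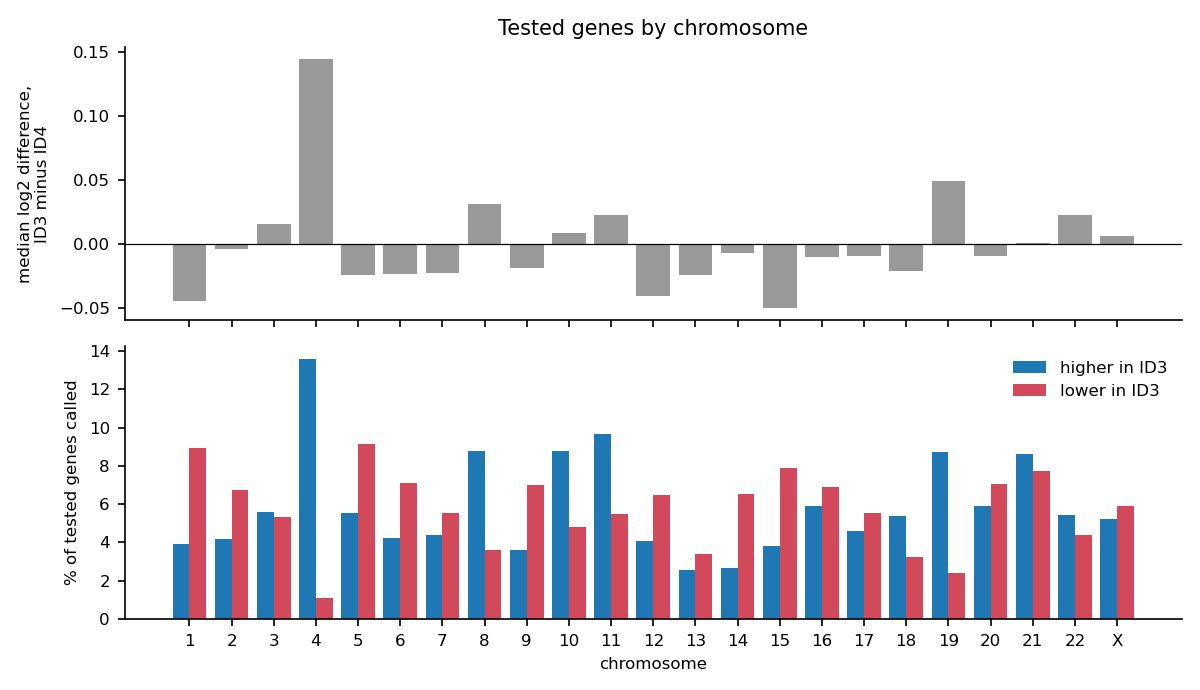
Median log2 difference (ID3 minus ID4) of the tested genes of each chromosome (above) and the percent of them called higher or lower in ID3 (below). Chromosome 4 has the highest median, 0.14, and the largest share of genes higher in ID3, 13.6%.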

How the data were processed

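RNA of 15 U87MG libraries was measured by QuantSeq 3′ sequencing. Per the file headers, the authors deposited raw counts per gene symbol and normalized values on the log2 scale, made on hg19. Bowtie2 and BWA stand in the submitters' processing notes without a role, and the counting tool, its annotation and its strand setting were not given in the sources used here. The raw counts were used, and the log2 values only in an alternative.

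Groups came from the sample titles. Genes with a mean of 10 or more counts over the 6 ID3 and ID4 libraries were fitted with edgeR 4.0.16 (quasi-likelihood, TMM, 1 mean per group, all 15 libraries), and p-values were adjusted by Benjamini-Hochberg over the 12793 genes at a threshold of 0.05. CPM used TMM-scaled totals, single ID genes were also tested with an exact permutation test (pseudocount 0.5 CPM), and a fold against a group with no count in any library used a floor of 3 counts per library. Ratios given with a counting interval are of summed counts over summed TMM-scaled totals, with zeros left as they stand. Each library held 11089044 to 15148979 counts, so that floor was 0.198 to 0.271 CPM. Intervals and floors cover counting error only. The fit was tested on simulated data with 200 changed genes. Coordinates are GRCh37 for genes and GRCh38.p14 for promoters.

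Libraries with the same number did not deviate together (correlations 0.0032, -0.14 and -0.15), so no pairing was used. The members and gene lists were chosen with earlier results of these data known. The text names ID1 to ID4, the 12 largest differences in each direction and the 10 largest at 20 CPM or more, and from each list up to 4 members with the smallest adjusted p and up to 2 abundant members that did not pass, a choice of these being given. Another 31 of the 124 genes given values were chosen after their values were seen. Some genes are not reported here. Alternatives changed the normalization (DESeq2 size factors), the tool (DESeq2 1.42.0, limma 3.58.1), the filter, the fold, the depth, the libraries, the replicate block and the chromosome medians.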

Additional observations from a re-analysis of the deposited data

Results flagged for a closer look

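In 4 of the genes described, the ID3 and the ID4 libraries both differed from GFP, in opposite directions, and the difference between the groups itself passed the edgeR test. SERPINE2 differed between ID3 and ID4 by 0.69 on the log2 scale (0.17 and -0.53 against GFP), TNFAIP6 by 2.11 (0.98 and -1.14) and LCMT1 by 1.80 (1.52 and -0.28). FDPS differed by -0.48, from -0.22 against GFP in ID3 and 0.27 in ID4. The comparisons with GFP share its 3 libraries.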

How the results depend on the processing

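The count of 1482 genes was 1830 with only the 6 libraries in the fit, 1485 with DESeq2 size factors, 1440 by DESeq2, 1437 by limma, 1577 without the filter, 1428 at a mean of 50 counts, 1372 with thinned counts and 1310 with the replicate block, which shared 1300 of the genes. It was 122 with a 2-fold limit and 359 of 25737 entries by the rule of the study's methods (over 2-fold and an unadjusted p under 0.05 on the deposited log2 values). Alternatives chosen after seeing the data gave 117 by that rule in the tested genes and 1409 without chromosome 4. Leaving out 1 library gave 832 to 1386. Under the 3 rules with a fold limit ID1 (0.21), ID2 (0.36) and ID3 (0.58) were no longer called, by construction. Without 1 library the ID1 difference was 0.16 to 0.26.

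Of the 109 called genes described from the lists and the largest differences, the ID genes and neighbouring genes aside, 37 lost the call without at least 1 library, between 13 (ID3 replicate 3) and 25 (ID3 replicate 1) at a time, among them PLK1, CCNB1, NFKB1, RELB, CXCL5, LAMP1, DCN and MMP1. None lost it with only the 6 libraries, other size factors or either filter. DESeq2 lost DCN and SNAP25, limma IL1R1, SNAP25 and TAGLN, thinned counts CXCL5, DCN, HEXA, IL1R1, SOX9 and SRXN1, the replicate block FTL, IL1R1, SNAP25 and SRXN1, and the chromosome medians 7, NFKB1 and SMAD1 among them. The cause was not tested. Each of the 3 rules with a fold limit ended 79 of the 109 calls, by construction. The sign turned for 4 genes that did not pass. Leaving out 1 library gave -0.031 to 0.045 for COL6A3, -0.033 to 0.11 for B2M, -0.062 to 0.068 for CTSL and -0.10 to 0.046 for STAT3. Differences of 1.25-fold were mostly missed in simulated data. Far fewer genes were changed there than were called here, so that share does not carry over to this comparison.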
